A study of Homo sapiens with 5 samples.

Results

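The 249 protein-coding genes of human chromosome 19 whose symbol is ZNF followed by a number were taken from the 20162 protein-coding genes of the GENCODE annotation on hg19 and searched for ChIP-seq peaks of Nrf2 and HIF1α. These ZNF genes were chosen by symbol and chromosome alone, and their finger domains were not checked. They were 3117 to 488696 bp long with a median of 25932 bp, and 3 of them are read-through genes that share sequence with a neighbour. The cells were BEAS-2B, an immortalized line of human bronchial epithelium, which had been starved of serum overnight. They were then left without inorganic arsenic (iAs) or given 1 μM iAs for 6 h. Each antibody was used in 1 control library and 1 iAs library, so the 4 groups are Nrf2 control, Nrf2 with iAs, HIF1α control and HIF1α with iAs. An input DNA library has no peak list of its own here. With 1 library per group no difference between conditions can be tested, and the intervals given are Wilson 95% intervals over genes or peaks, which cover counting error only and treat neighbours as independent.

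Most ZNF genes of this chromosome encode C2H2 zinc finger proteins, and many of these also carry a KRAB domain. KRAB proteins bind DNA through an array of fingers and recruit TRIM28, which brings the histone methyltransferase SETDB1 and heterochromatin proteins to silence transposable elements and other targets. The genes arose by repeated tandem duplication, so neighbours often resemble each other in exons and in promoters. Nrf2 is the transcription factor of the antioxidant response, and HIF1α is the oxygen-regulated factor of the hypoxia response.

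The deposited lists hold 3204 peaks for Nrf2 control, 7743 for Nrf2 with iAs, 6008 for HIF1α control and 12826 for HIF1α with iAs. On chromosome 19 these were 76, 176, 229 and 715 peaks. The lists give positions without heights, so a peak can only be present or absent, and its width is the only measure of size. The read depth behind the lists is unknown.

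The ZNF genes held few Nrf2 peaks and many more HIF1α peaks. In Nrf2 control 6 of the 249 genes (2.41%, interval 1.11 to 5.16) had a peak in the gene body or within 10 kb, where 10.6% of all protein-coding genes did. In Nrf2 with iAs there were 9 such genes (3.61%, interval 1.91 to 6.73), against a background of 19.6%. In HIF1α control there were 36 (14.5%, interval 10.6 to 19.4), against 29.0%. In HIF1α with iAs there were 87 (34.9%, interval 29.3 to 41.0), against 54.7%. All 4 shares lie under the share of all genes, and HIF1α with iAs reached more ZNF genes than the other 3 libraries. A peak in at least 1 library was found at 97 ZNF genes (39.0%, background 61.4%), and the other 152 had none.

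The comparison genes of the same chromosome were the 1231 other protein-coding genes, read in 5 bins of gene length with each bin weighted by its number of ZNF genes. Their weighted shares were 9.82% in Nrf2 control, 16.9% in Nrf2 with iAs, 25.9% in HIF1α control and 56.0% in HIF1α with iAs. Without the weighting they were 8.61%, 14.3%, 24.9% and 53.1%. The differences of the ZNF genes from genes of similar length were −7.41, −13.3, −11.4 and −21.1 percentage points in the same order, and the intervals of the unweighted shares did not overlap in any of the 4 libraries.

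The gap was smaller when peaks were given to genes in another way. ZNF genes had fewer neighbours of other kinds, since 187 of the 249 windows of 10 kb around them (75.1%) held no start of a protein-coding gene outside the ZNF set, against 414 of 1231 windows (33.6%) of the other genes. When each peak was counted only for the gene with the nearest start, HIF1α control peaks fell to 27 ZNF genes (10.8%, interval 7.56 to 15.3, background 18.9%) and 155 other chromosome 19 genes (12.6%, interval 10.9 to 14.6). For HIF1α with iAs the same count gave 66 ZNF genes (26.5%, interval 21.4 to 32.3, background 42.0%) and 419 other genes (34.0%, interval 31.4 to 36.7). For Nrf2 it gave 4 ZNF genes (1.61%, background 6.92%) against 4.47% of the others in control and 6 (2.41%, background 13.6%) against 8.04% with iAs. Under this count the HIF1α intervals of the 2 gene sets overlapped in both conditions, and the ZNF share stayed the lower in all 4 libraries.

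At the start sites the ZNF genes differed little from their chromosome. A HIF1α control peak lay within 1 kb of the canonical start of 25 ZNF genes (10.04%, interval 6.89 to 14.4, background 16.7%) and of 144 other chromosome 19 genes (11.7%, interval 10.02 to 13.6). With iAs, HIF1α peaks lay at the starts of 72 ZNF genes (28.9%, interval 23.6 to 34.8, background 42.6%) and of 401 others (32.6%, interval 30.01 to 35.2). Those intervals overlap in both conditions. Nrf2 peaks lay at the starts of 3 ZNF genes in control (1.20%, background 2.33%) and of 4 with iAs (1.61%, background 5.18%), and at 2.44% and 3.74% of the other chromosome 19 starts.

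**Figure D1:**
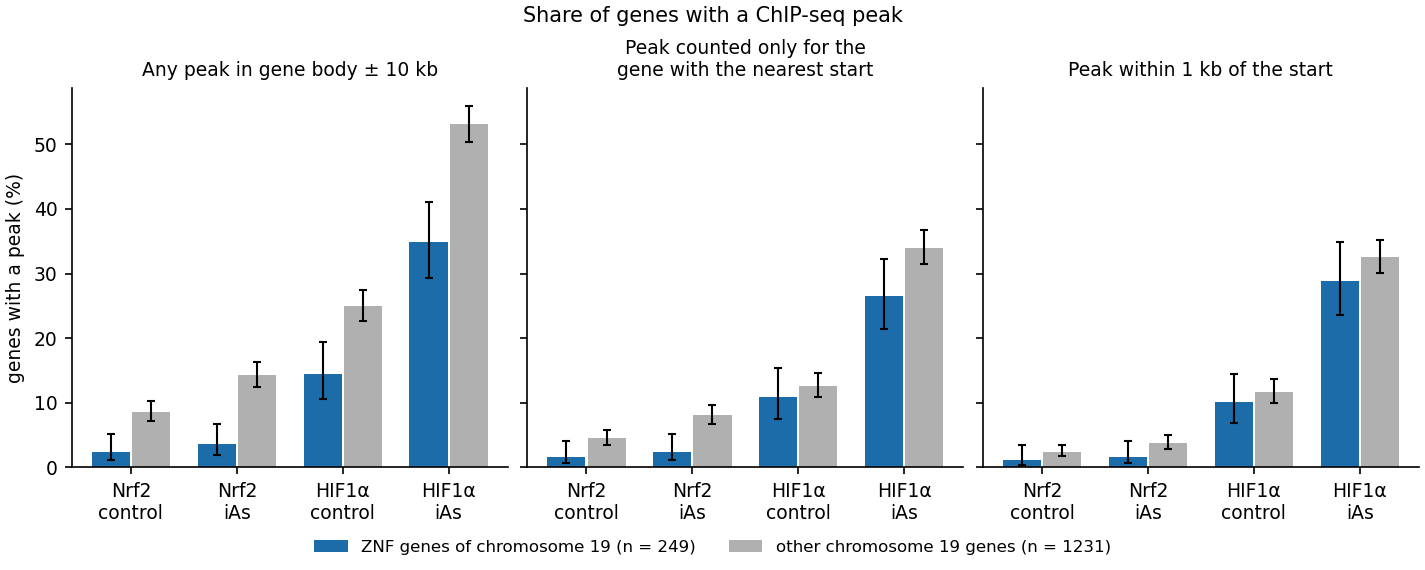
Share of genes with a peak (y axis, percent) in each of the 4 libraries (x axis), for the 249 ZNF genes and the 1231 other protein-coding genes of chromosome 19, under 3 ways to give peaks to genes. Bars are shares and lines are Wilson 95% intervals. For HIF1α with iAs the ZNF genes were at 34.9% against 53.1% for any peak within 10 kb and at 28.9% against 32.6% at the start.

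A peak present with iAs that shared no base with a control peak of its factor was found for Nrf2 at 3 ZNF genes (1.20%, interval 0.411 to 3.48), where 13.7% of all genes had such a peak and the length-weighted share of the other chromosome 19 genes was 11.0%. For HIF1α it was found at 65 ZNF genes (26.1%, interval 21.0 to 31.9), against a background of 43.5% and a length-weighted share of 47.9%. Peaks of both Nrf2 and HIF1α with iAs were found at 6 ZNF genes (2.41%, background 14.9%), against 135 other chromosome 19 genes (11.0%). Among the combinations of libraries, 60 ZNF genes had a peak in HIF1α with iAs alone, 21 in both HIF1α libraries and 7 in HIF1α control alone, while 5 had peaks in all 4 libraries. Of all protein-coding genes, 29.0% had a HIF1α control peak and 54.7% one with iAs. The combinations themselves were not counted over all genes.

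The Nrf2 peaks were few enough to be described in full. There were 5 distinct control peaks and 6 with iAs, and all 5 control peaks overlapped an iAs peak. ZNF507 had 2 Nrf2 control peaks in an intron, at chr19:32863806-32864394 and chr19:32864644-32865012. With iAs a single Nrf2 peak of 1219 bp, at chr19:32863822-32865040, covered both, which made it the widest Nrf2 peak at any ZNF gene. The HIF1α control peak of ZNF507 was 190 bp wide and lay in the same intron inside the second of these Nrf2 peaks, whereas its HIF1α peak with iAs, 464 bp wide, lay at the start of the gene, 85 bp downstream of the start site. HIF1α and Nrf2 thus met in the intron in control cells and had no common peak there with iAs.

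The other Nrf2 peaks were at start sites except that of ZNF675. At ZNF383 the Nrf2 peak was 299 bp wide in control and 338 bp with iAs, and a HIF1α peak of 281 bp was there in control alone. The start of ZNF576 carried a peak in all 4 libraries, 532 bp and 574 bp for Nrf2 and 261 bp and 255 bp for HIF1α, and also lies within 1 kb of the start of IRGQ. The start of ZNF497 did as well, with 220 bp and 216 bp for Nrf2 and 531 bp and 468 bp for HIF1α. The peak of ZNF547, 238 bp wide, was called for Nrf2 with iAs and not in Nrf2 control, and overlapped a HIF1α peak of 237 bp that was called in control alone. Both peaks also lie within 1 kb of the starts of TRAPPC2B and another gene outside the ZNF set. ZNF675 had a Nrf2 peak of 481 bp with iAs in the annotated gene body but outside its canonical transcript, 137483 bp downstream of the start. With iAs, an Nrf2 and a HIF1α peak overlapped only at ZNF576 and ZNF497 among the ZNF genes. ZNF837 and ZNF585B had no Nrf2 peak at their own starts and counted as genes with peaks in all 4 libraries because the Nrf2 start peaks of their neighbours, ZNF497 and ZNF383, lay within 10 kb of them. The HIF1α peak of ZNF585B with iAs, 246 bp wide, was the start peak of another neighbour, ZNF585A.

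The sequence under these Nrf2 peaks is shown because few of them held the usual Nrf2 and AP-1 core, TGACTCA or TGAGTCA. Within 100 bp of the peak centre, on either strand, none of the 5 control and 6 iAs Nrf2 peaks held that core, nor did any of the 35 and 87 HIF1α peaks. Of the other chromosome 19 peaks 28 of 71 (39.4%) held it in Nrf2 control, 55 of 170 (32.4%) in Nrf2 with iAs, 26 of 194 (13.4%) in HIF1α control and 26 of 628 (4.14%) in HIF1α with iAs. Of all RefSeq promoters 4.92% held it. The Wilson intervals of the ZNF Nrf2 peaks, 0 to 43.4% in control and 0 to 39.0% with iAs, include the shares of the other Nrf2 peaks. So few Nrf2 peaks cannot show a lower share. For HIF1α the ZNF intervals were 0 to 9.89% in control and 0 to 4.23% with iAs. They overlap those of the other HIF1α peaks, 9.31 to 18.9% and 2.84 to 6.00%. As whole peaks, 1 of the 87 HIF1α iAs peaks at ZNF genes held the core. Over the whole length of the Nrf2 peaks the core was found at ZNF576, at −260 bp from the peak centre. The intron of ZNF507 held the looser form TGACNNNGC, the core of the antioxidant response element, in the stretch shared by the Nrf2 peaks of both conditions and the HIF1α control peak. With iAs the whole peaks of ZNF383 and ZNF547 held it too. Within 100 bp of the centre it was in 1 of 5 Nrf2 control peaks and 1 of 6 iAs peaks at ZNF genes, against 24 of 71 (33.8%) and 54 of 170 (31.8%) other Nrf2 peaks of the chromosome, and 13.6% of all RefSeq promoters held it. The word is in capitals in each sequence below, read from hg19 in the plus strand for ZNF507 (chr19:32864821-32864929, intronic, in no annotated exon, with the word on the minus strand) and in the gene's strand for the others, where the capitals mark the TGAGTCA core in ZNF576, the cyclic AMP response element TGACGTCA in ZNF547 and the reverse complement of the YY1 word AAGATGGCG in ZNF383.
ZNF507 intron: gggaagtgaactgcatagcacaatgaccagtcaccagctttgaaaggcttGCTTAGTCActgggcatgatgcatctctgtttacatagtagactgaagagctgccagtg
ZNF576 start (chr19:44100409-44100438, plus strand): agaacaatgaaTGAGTCAacgcgcctgcgc
ZNF547 start (chr19:57874855-57874884, plus strand): ttggcgctctaTGACGTCAccgaagtgacg
ZNF383 start (chr19:37709007-37709036, plus strand): aaaaaacaggCGCCATCTTctcggcgcggt

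HIF1α peaks at the ZNF genes were mostly peaks at starts in both conditions. In control 26 of 35 distinct peaks had their centre within 1 kb of a ZNF start, and with iAs 70 of 87 did. Peaks at starts were common on the whole chromosome. Of all its 229 control and 715 iAs HIF1α peaks, 122 and 401 had their centre within 1 kb of the start of another protein-coding gene. The last exon, which holds the finger array of most of these genes, contained the centre of none of the 35 control peaks and of 1 of the 87 iAs peaks, at ZNF628. Another gene's start lay within 1 kb of 8 control and 22 iAs peaks, so those peaks cannot be given to the ZNF gene alone. The median width was 295 bp in control and 316 bp with iAs.

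Taken over all start peaks of each list, the peak centres lay further downstream with iAs. Most ZNF starts with an iAs peak had none in control, as 54 had it with iAs only and 18 in both conditions. At genes with both, centres moved either way, as from 275 to 194 bp at ZNF430 and from 60 to 239 bp at ZNF160. A shift of the same peaks was not tested. The median centre was at −49.5 bp from the start in control (26 peaks, quartiles at −117 and 13.0 bp) and at 67.5 bp with iAs (70 peaks, quartiles at −47.0 and 214 bp). In control 17 centres were upstream of the start, 8 were in exon 1 and 1 was past it, whereas with iAs 23 were upstream, 25 in exon 1 and 21 past it, and 1 gene had no transcript to place it. The other chromosome 19 starts showed a like difference, with a median at −113.5 bp in control (122 peaks) and at 64.0 bp with iAs (401 peaks).

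**Figure D2:**
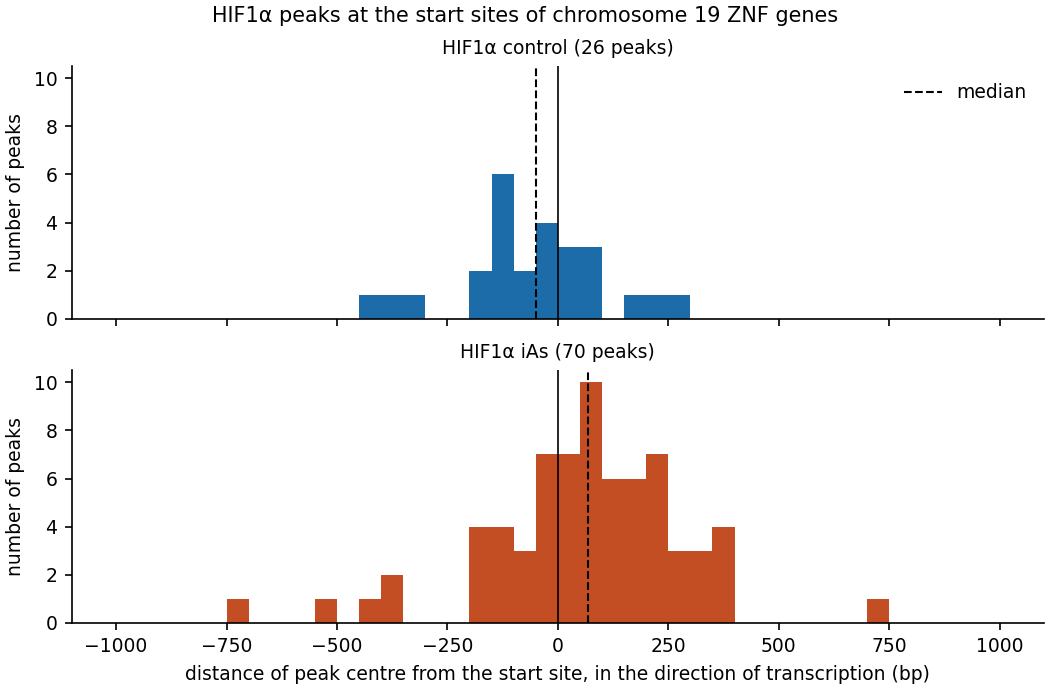
Distance of HIF1α peak centres from the start sites of chromosome 19 ZNF genes (x axis, bp, positive in the direction of transcription) and number of peaks per 50 bp (y axis), in control (top, 26 peaks) and with iAs (bottom, 70 peaks). The solid line is the start and the dashed line the median, which lay at −49.5 bp in control and at 67.5 bp with iAs.

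Of the 35 HIF1α control peaks at ZNF genes 23 (65.7%, interval 49.2 to 79.2) overlapped an iAs peak, the same share as the 128 of 194 (66.0%, interval 59.1 to 72.3) elsewhere on the chromosome. The 23 shared peaks were 26.4% of the 87 iAs peaks (interval 18.3 to 36.6), against 126 of 628 (20.1%, interval 17.1 to 23.4) elsewhere on the chromosome. Of the 23 shared ZNF peaks 13 were wider with iAs and 10 narrower, with medians of 333 bp in control and 430 bp with iAs. Over all HIF1α peaks of the genome, shared or not, the median width was 276 bp in control and 340 bp with iAs. By start site, 18 ZNF genes had a HIF1α peak in both conditions, 54 with iAs only and 7 in control only, which were ZNF317, ZNF383, ZNF577, ZNF611, ZNF547, ZNF17 and ZNF586. Over all protein-coding genes the share with a HIF1α start peak was 16.7% in control and 42.6% with iAs. The split into these classes was not counted for other genes.

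The widest HIF1α peaks with iAs were mostly at starts. The peak between ZNF524 and FIZ1 was 1110 bp wide with iAs and 679 bp in control, and fell in the windows of ZNF524 and its neighbour ZNF865. ZNF584 had a start peak of 822 bp with iAs over a control peak of 238 bp, and ZNF160, whose peak was also within 10 kb of ZNF415, of 701 bp over 331 bp. Peaks called with iAs alone were 620 bp wide at ZNF544, 618 bp at ZNF180 and 599 bp at ZNF613. ZNF562 had 432 bp in control and 596 bp with iAs. ZNF274, whose product recruits SETDB1 to the 3′ ends of other ZNF genes, had start peaks of 416 bp and 577 bp. The 672 bp peak in the window of ZNF541 lay at the start of NAPA, and the 646 bp peak shared by ZNF580 and ZNF581 at that of CCDC106. ZNF581 had the most HIF1α peaks, 3 in control and 8 with iAs, of which the 3 control peaks and 4 of the iAs peaks lay more than 10 kb downstream of its start, near U2AF2.

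Among the control peaks that overlapped no iAs peak, the widest were the body peak of ZNF577 (308 bp), the start peaks of ZNF17 (289 bp) and ZNF383 (281 bp) and the start peak of ZNF577 (265 bp). They were followed by those of ZNF329 (244 bp, at −4288 bp from the start), ZNF302 and ZNF547 (237 bp each) and a second peak of ZNF432 (218 bp). ZNF302 had a separate iAs peak of 583 bp centred at 138 bp from its start, where the control peak was centred at −340 bp.

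The genes fell into 20 clusters when neighbours less than 500 kb apart were joined, and the counts of genes with peaks varied between them. The background was 29.0% in HIF1α control, 54.7% in HIF1α with iAs, 10.6% in Nrf2 control and 19.6% in Nrf2 with iAs. Differences between clusters were not tested. In cluster 4, of 26 genes from ZNF653 to ZNF791 (chr19:11594242-12750912), no gene had a HIF1α control peak and 15 (57.7%) had one with iAs, 12 of them at the start. That share is near the background of 54.7%, and 10 of the 13 other protein-coding genes that start in the cluster had such a peak too, 6 at the start. In cluster 18, of 40 genes from ZNF175 to ZNF331, there were 10 genes with a HIF1α peak in control and 12 with iAs. In cluster 20, of 43 genes from ZNF264 to ZNF446, the counts were 10 and 12, and it held 2 genes with a Nrf2 peak in control and 4 with iAs. Cluster 10, of 26 genes from ZNF565 to ZNF573, went from 3 to 12. Among the clusters of at least 10 genes, those with the lowest shares were cluster 13, with 3 of 23 genes from ZNF575 to ZNF180 (13.0%) in HIF1α with iAs, and cluster 6, with 7 of 37 from ZNF101 to ZNF254 (18.9%). The longest run of neighbours without a peak in any library was in cluster 6, of 20 genes over 2.31 Mb from ZNF714 to ZNF91, the gene whose product represses SVA retrotransposons. Expression and chromatin state of these clusters in BEAS-2B were not analysed here.

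**Figure D3:**
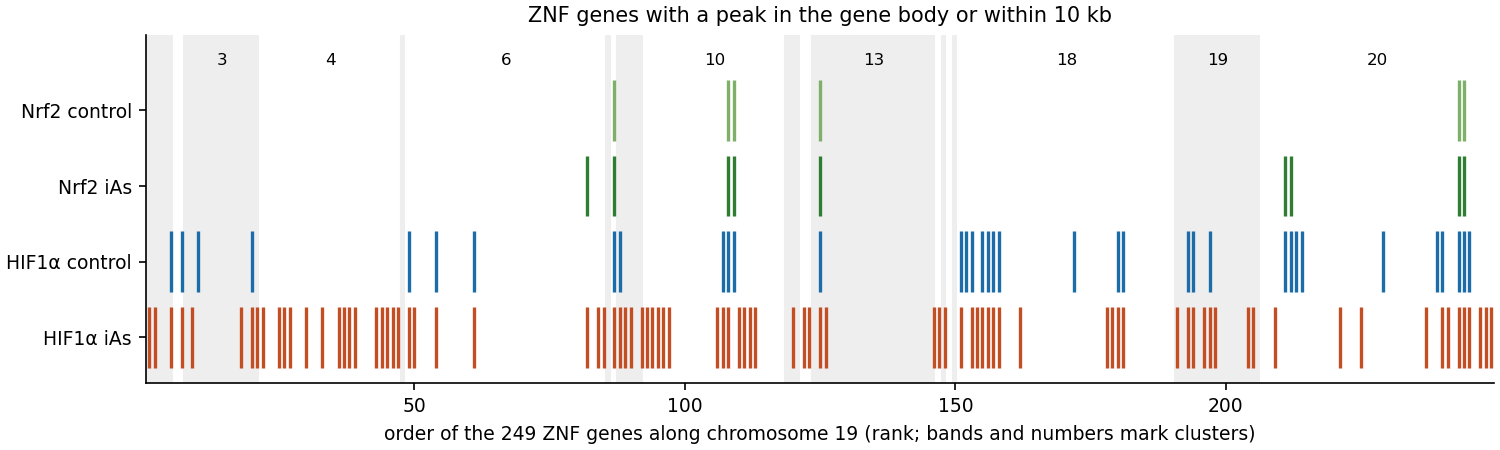
ZNF genes with a peak in the gene body or within 10 kb in each library (rows), in their order along chromosome 19 (x axis, rank from 1 to 249). Each vertical mark is 1 gene, and bands with numbers are the clusters of at least 10 genes. Cluster 4 has no mark for HIF1α control and 15 for HIF1α with iAs.

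Some small clusters had a peak at nearly every gene and others at none. The lone gene ZNF507 had peaks in all 4 libraries, both genes of the cluster of ZNF574 and ZNF526 had a HIF1α peak with iAs, and 4 of the 5 genes from ZNF302 to ZNF792 did. The background for HIF1α with iAs is 54.7%, and clusters this small cannot be set apart from it. In gene order alone, the longest run of ZNF genes with a HIF1α start peak with iAs was of 6, from ZNF792 to ZNF529. It spans 1.65 Mb and crosses from cluster 9 to cluster 10, so these are not all close neighbours. ZNF565 and ZNF146 in it share a single peak. The gene with the most peaks in its cluster was ZNF554 with 2 HIF1α peaks with iAs, ZNF358 with 1 in each HIF1α library, ZNF101 with 1 in control and 2 with iAs, and ZNF526, ZNF296 and ZNF653 with 2 each and ZNF780B with 1, all with iAs alone. The lone genes ZNF333, ZNF536, ZNF114 and ZNF473 had no peak in any library.

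A run of neighbours in cluster 18 showed what the control peaks shared in sequence. Between ZNF577 and ZNF432 lie 7 ZNF genes, and 6 of them, ZNF577, ZNF649, ZNF350, ZNF615, ZNF614 and ZNF432, had a HIF1α control peak at the start, 241 to 335 bp wide for the main peaks of the latter 5 and 265 bp for ZNF577. With iAs the peak of ZNF577 was no longer called, the others stayed at 234, 241, 286, 346 and 470 bp in that order, and ZNF613, which lies on the opposite strand and had no control peak, had its 599 bp peak. ZNF350 encodes a repressor known as a partner of BRCA1. The 6 control peaks hold ATGGCNGC, the core of the YY1 binding word, in the strand of the gene and at −130 to −62 bp from the start. The word was picked from these 6 sequences, so its presence in them is no finding, and the sequences are shown to let the similarity be seen. The capitals mark ATGGCNGC, and each stretch is read 5′ to 3′ on the minus strand of hg19.
ZNF577 (chr19:52391300-52391329): ttgaaaATGGCTGCtcccagcaagcgtccc
ZNF649 (chr19:52408333-52408362): accaagATGGCCGCgcccagagagccgtgg
ZNF350 (chr19:52490209-52490238): tcaaacATGGCTGCcgtcaggagccacggc
ZNF615 (chr19:52511515-52511544): tcaaagATGGCGGCccccatggagccaagg
ZNF614 (chr19:52531706-52531735): gccattATGGCCGCtcctgtcagaaacgct
ZNF432 (chr19:52552139-52552168): tcaaagATGGCCGCccccagagcggcgagg

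Outside that run ATGGCNGC was also found under HIF1α control peaks of ZNF genes. Within 100 bp of the centre 15 of all 35 control peaks (42.9%, interval 28.0 to 59.1) held it on either strand, and 9 of the 27 peaks outside the 6 genes (33.3%, interval 18.6 to 52.2) did. The other chromosome 19 control peaks held it in 29 of 194 cases (14.9%, interval 10.6 to 20.6), and the ZNF peak windows moved by 5 kb in 1 of 35. The interval of those other peaks overlaps that of the 27 ZNF peaks outside the 6 genes. By place, 14 of the 26 ZNF control peaks at starts held the word and 1 of the 9 elsewhere. The other chromosome 19 peaks were not split by place. With iAs the share was 18 of 87 (20.7%, interval 13.5 to 30.4) at ZNF genes and 50 of 628 (7.96%, interval 6.09 to 10.3) at other peaks. Without the 6 genes it was 13 of 82 (15.9%, interval 9.51 to 25.3), whose interval overlaps that of the other peaks. Of all RefSeq promoters, 250 bases before to 50 after the start on GRCh38, 7.69% held it, and 11.5% of the 218 ZNF genes found in that table. The longer word AAGATGGCG, which overlaps it, was in 4 of 35 ZNF control peaks (11.4%) and 8 of 87 with iAs (9.20%), against 9.28% and 2.71% of the other peaks and 1.85% of all RefSeq promoters.

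Cluster 4 showed a different word under the iAs peaks. Measured from the nearest ZNF start, all of its 10 distinct start peaks with iAs had their centre downstream, by 82 to 335 bp (median 238 bp). Of these, 3 were in exon 1, 6 past it and 1 at a read-through gene without a transcript to place it. The peak of ZNF791 is also the start peak of ZNF490, on the opposite strand, and its centre is upstream of that start. The word GGAACCGGC was seen in several of these windows and then counted. Within 1 kb of the start it was present in 17 of the 26 genes of the cluster (65.4%), in 10 of the 12 with an iAs start peak and in 7 of the 14 without. Because the word was picked from these peak windows, its presence at genes with a peak is no finding, and the 12 genes share 10 distinct peaks. In the other clusters of at least 10 genes it was present in 0 to 2 genes each, and in 23 of the 1231 other chromosome 19 genes (1.87%). Of all RefSeq promoters 0.399% held it, and 0 of the 218 ZNF promoters did, in a table that ends 50 bases after the start. The copies are shown because they belong to neighbouring duplicates, with GGAACCGGC in capitals and each stretch read 5′ to 3′ on the strand of the gene.
ZNF441 (chr19:11878053-11878082, plus strand): gactggttGGAACCGGCcggaaccggctgt
ZNF440 (chr19:11925312-11925341, plus strand): aatcggccGGAACCGGCtgaggcgggaccc
ZNF700 (chr19:12036137-12036166, plus strand): aacaggcgGGAACCGGCtgtggcgggaccc
ZNF44 (chr19:12405428-12405457, minus strand): aaccagtcGGAACCGGCtgtggcgggaccc
ZNF443 (chr19:12551659-12551688, minus strand): ggttaggtGGAACCGGCcgtaatcggctgt
ZNF564 (chr19:12662065-12662094, minus strand): aaccggccGGAACCGGCtgtggaagcaccc

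These stretches lay 162 to 256 bp downstream of the starts. Near-identical copies can share reads, and how the reads of such copies were placed is not given in the sources used here. The share of 50-base words that occur more than once on the chromosome had a median of 3.51% in all ZNF windows and 3.36% in the windows of the other genes, and of 0.300% against 0.150% within 1 kb of the start. For the 6 genes printed above it was 2.94 to 21.3% in the windows and 1.35 to 20.1% at the starts, where all 6 lay above the ZNF median, and ZNF443 was the highest of the 6 in both. The median over the 26 genes of cluster 4 was 4.69% in the windows and 0.925% at the starts. The part of such copies in the peaks was not tested.

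The hypoxia words were no more common in ZNF peaks than in others. ACGTG was in 7 of 35 HIF1α control peaks (20.0%) and 17 of 87 with iAs (19.5%), against 27.3% and 22.6% of the other chromosome 19 peaks. GCGTG was in 22.9% and 36.8%, against 37.6% and 46.0%. Of all RefSeq promoters 21.6% held ACGTG and 36.3% held GCGTG. The ETS word CCGGAAG was in 28.6% and 17.2%, against 16.0% and 9.24%. That word is common in the ZNF promoters themselves, in 99 of 218 (45.4%) against 13.0% of the other chromosome 19 promoters and 10.7% of all, and was in 38.6% of those with a HIF1α iAs start peak and 48.6% of those without.

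The GC content of the start was set beside the HIF1α start peaks. The ZNF genes were split into 3 groups of 83 by GC within 500 bp of the start, with bounds at 36.8, 55.6, 60.7 and 76.7%. In control the share of ZNF genes with a start peak was 12.05% in the lowest group (interval 6.68 to 20.8), 10.8% in the middle (5.81 to 19.3) and 7.23% in the highest (3.36 to 14.9). Among other chromosome 19 genes of the same GC it was 4.89%, 10.04% and 14.6%. With iAs the ZNF shares were 14.5% (interval 8.47 to 23.6), 28.9% (20.3 to 39.4) and 43.4% (33.2 to 54.1), and those of the others were 5.33%, 53 of 279 and 46.3%. In the iAs library the ZNF interval of the highest group lay above that of the lowest, while the 3 intervals of the control library, which rest on 10, 9 and 6 genes, overlapped. In the lowest group the intervals of the other genes were 2.75 to 8.54% in control and 3.08 to 9.09% with iAs, and overlapped those of the ZNF genes. The median GC was 58.4% at ZNF starts and 62.0% at the others.

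**Figure D4:**
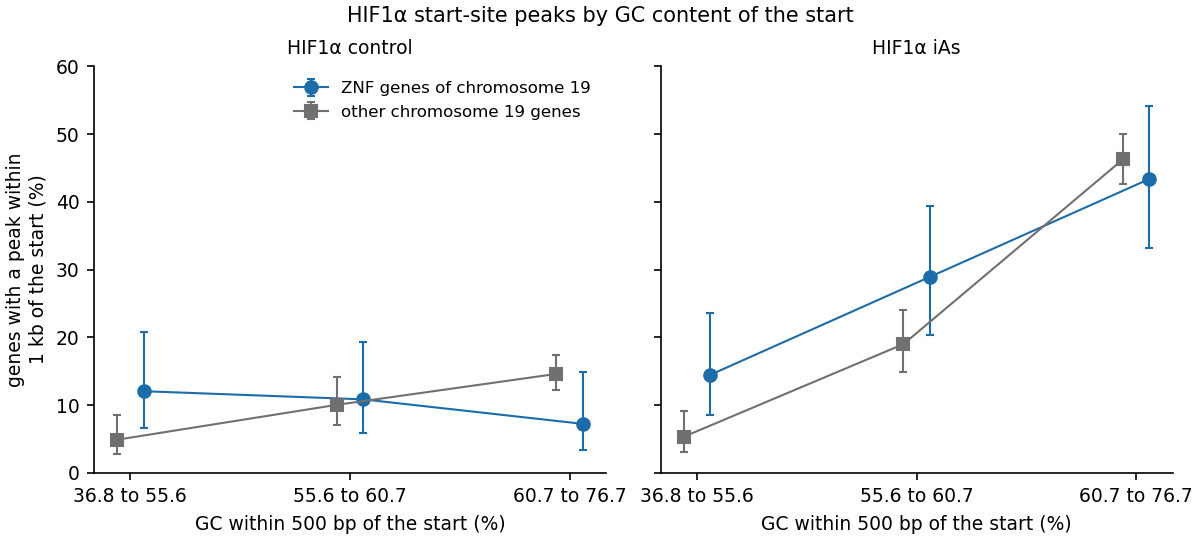
Share of genes with a HIF1α peak within 1 kb of the start (y axis, percent) by GC within 500 bp of the start (x axis), in control (left) and with iAs (right). The bounds split the ZNF genes into 3 groups of 83, and hold 225, 279 and 685 of the other chromosome 19 genes. Points are shares and lines Wilson 95% intervals. The ZNF genes went from 12.05% to 7.23% in control and from 14.5% to 43.4% with iAs.

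The partners of KRAB zinc finger proteins were searched in the same way. Of a list of 15 genes, 14 carried a HIF1α peak after iAs in the body or its 10 kb surroundings, all but ATRX, where the background was 54.7%. In HIF1α control 6 did (background 29.0%), namely CBX1 and CBX5, which encode heterochromatin proteins, the remodeller CHD3, the silencing factors TASOR and UHRF1, and TRIM28 itself. UHRF1 was the only gene of the 15 with a Nrf2 peak, with iAs (background 19.6%). At the starts there were 3 of the 15 in HIF1α control (CBX1, CBX5 and TASOR, background 16.7%) and 9 with iAs (background 42.6%), among them TRIM28, the DNA methyltransferase gene DNMT1, MORC2, MPHOSPH8, ATF7IP and CBX3. SETDB1 had its iAs peak of HIF1α away from the start. The 15 genes were picked for their function and were not matched to the background by length or by neighbouring genes. A difference from the background was not tested.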

How the data were processed

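ChIP-seq peaks of 4 libraries from BEAS-2B cells (Nrf2 and HIF1α, without or with iAs) were analysed as deposited, and the input library was not used. Per the labels the antibodies were from Santa Cruz (Nrf2) and Abcam (HIF1α), and the study's methods name another supplier. The authors down-sampled the tags within a group and called peaks with MACS or SICER, without saying which made a list; BWA and MACS2 2.1.0 stand in the submitters' processing notes. The deposited values are peak starts and ends on hg19 without heights, so no stricter threshold could be set and the depth is unknown. Starts were changed from 0-based to 1-based. Genes came from GENCODE release 44 on GRCh37, whose chromosome names and lengths hold every peak. A peak counted for a gene when it touched its body or 10 kb around it, and for a start when it touched 1 kb on each side. An iAs peak that shared no base with a control peak of its factor was given as iAs-only. Motif words were searched on both strands in 201 bp around peak centres and in windows moved by 5 kb. Promoter sequences came from RefSeq on GRCh38.p14, where 218 of 249 ZNF symbols matched.

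The genes and lists were chosen with earlier results of these data known, and the words ATGGCNGC, GGAACCGGC and TGACNNNGC after their sequences were seen. Genes were named by fixed rules: peaks in most libraries, widest HIF1α iAs peaks, widest Nrf2 peaks, overlapping iAs peaks of both factors, widest control-only HIF1α peaks, most peaks per cluster, and the whole list of 15 KRAB partners. Others named (such as ZNF274, ZNF613 and the run in cluster 18) were chosen after their values were seen. No test was run because each group has 1 library. The functions were tested on simulated data with known answers, and 9 of 9 checks passed. The work used Python 3.11.15 with pandas 2.3.3, NumPy 2.4.6 and SciPy 1.17.1. Protein features were not analysed here.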

Additional observations from a re-analysis of the deposited data

How the results depend on the processing

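No paired analysis was possible because each group has 1 library and no test was run. Of 156 values recomputed under another setting, 125 stayed within their interval or within 1.5 times and 31 moved beyond it. Only the differences from comparison genes could turn in direction, and 0 of them did. The causes were not tested. With windows of 50 kb, ZNF genes with a peak were 16 (Nrf2 with iAs), 65 (HIF1α control) and 133 (HIF1α with iAs), iAs-only genes 7 (Nrf2) and 114 (HIF1α), and differences from comparison genes −17.0 (Nrf2 control), −28.0 (Nrf2 with iAs), −25.4 (HIF1α control) and −20.6 (Nrf2 iAs-only) percentage points. With 2 kb they were −9.25 (Nrf2 with iAs) and −7.05 (Nrf2 iAs-only). The wider 50% of the peaks left 2, 5 and 41 genes with a peak (Nrf2 control, Nrf2 with iAs, HIF1α with iAs), 29 HIF1α iAs-only genes and 1, 2, 14 and 32 genes with a start peak in the 4 libraries, and differences of −9.11 (Nrf2 with iAs), −4.80 (HIF1α control) and −4.77 (Nrf2 iAs-only). Counting each peak for the nearest start gave −3.40, −7.22, −2.12 and −9.40 in the 4 libraries. Against ZNF genes of other chromosomes the differences were −1.41 (Nrf2 control), −8.49 (Nrf2 with iAs) and −28.7 (HIF1α with iAs). Over whole peaks GCGTG was in 50.6% and CCGGAAG in 29.9% of HIF1α iAs peaks at ZNF genes. Depth is unknown, so an absent peak can be a peak under the callers' limit.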

Other observations

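ZNF genes of other chromosomes differed from those of chromosome 19. Of 266 such genes 52 (19.5%, interval 15.2 to 24.7) had a HIF1α control peak at the start and 147 (55.3%, interval 49.3 to 61.1) had one with iAs, where 10.04% and 28.9% of the chromosome 19 genes did. In the body or within 10 kb the HIF1α shares were 31.95% in control and 62.4% with iAs, and the Nrf2 shares 5.26% and 15.0%. The intervals of the HIF1α start shares do not overlap between these 2 sets of ZNF genes in either condition, whereas those of chromosome 19 ZNF genes and other chromosome 19 genes do. Chromosome, cluster size and the kind of zinc finger protein cannot be told apart in this comparison.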
